A study of Daphnia pulicaria with 8 samples.

Results

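The genes described are 4 of the 27 genes that the deposited table names di-domain hemoglobin precursor: Daplx7pEVm013675, Daplx7pEVm013666, Daplx7pEVm012731 and Daplx7pEVm058987. They were taken by identifier, out of 33069 genes and 34 genes with a globin name, and were chosen by their FPKM level and their higher level in Red than in Pale animals. Both are therefore given as descriptions without a test. Daphnia pulicaria is a water flea, and its adults were sampled as Red and as Pale phenotypes in 4 lakes, named Black, Doe, Long and Round, with 1 library per lake and phenotype and so 4 Red and 4 Pale libraries. A library stands for pooled animals, since the labels' protocols speak of 30 from each lake, and strand-specific libraries were made after removal of ribosomal RNA. Whether the 30 animals were counted per phenotype, how the phenotype was scored and the animals' age and oxygen supply are not given in the sources used here.

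Daphnia hemoglobin is a large extracellular protein dissolved in the blood. It is built of many chains, each of which carries a pair of heme-binding domains in tandem, and several similar genes encode these chains. Water fleas held at low oxygen make more of it and turn visibly red, and hypoxia-inducible factor, a transcription factor stabilised when oxygen is scarce, is known to act on hemoglobin genes in Daphnia magna.

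Levels were deposited as FPKM, a fragment number divided by transcript length and library size, which allows levels of different genes to be set side by side. A library summed to between 543804 and 582444 FPKM and had between 19274 and 21606 genes above 0. The number of reads is unknown. Judged by the steps among low values, Black Red was 1.85 times as deep as Black Pale, and the remaining libraries lay between 0.904 and 1.13 on that scale. This estimate takes the commonest ratio among low values and could be off by a whole multiple. Genes of 1 family with similar sequence can share reads, and the quantification tool was not given in the sources used here, so levels of single copies are less certain than their sum. In whole animals, a smaller share of hemoglobin-making cells and less transcript per cell cannot be told apart.

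Daplx7pEVm013675 was the most abundant globin gene of the table, with a mean of 728 FPKM over the 8 libraries. It had 1092, 1129, 950.3 and 678 FPKM in the Red libraries of Black, Doe, Long and Round, against 294, 764, 773 and 144 FPKM in their Pale libraries. Red was higher in each lake, but the groups overlapped, because Pale Doe and Pale Long lay above Red Round.

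Daplx7pEVm013666 had 530.3, 546, 369.8 and 743 FPKM in the Red libraries of Black, Doe, Long and Round, against 131, 368.5, 222 and 81.5 FPKM in Pale. All Red libraries lay above all Pale libraries, though only by the narrow gap between Red Long and Pale Doe. Round stood at both ends, with the highest Red and the lowest Pale value.

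Daplx7pEVm012731 had 466, 499, 270.4 and 269 FPKM in the Red libraries of Black, Doe, Long and Round, against 145, 205, 61.5 and 6.9 FPKM in Pale. The groups did not overlap, and the Pale Round library was far below all others. Daplx7pEVm058987, the least abundant of the 4, had 171, 277, 134 and 87.7 FPKM in Red, against 29.5, 193, 29.5 and 8.06 FPKM in Pale. Its Pale Doe value exceeded the Red values of Black, Long and Round, so its groups overlapped.

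**Figure D1:**
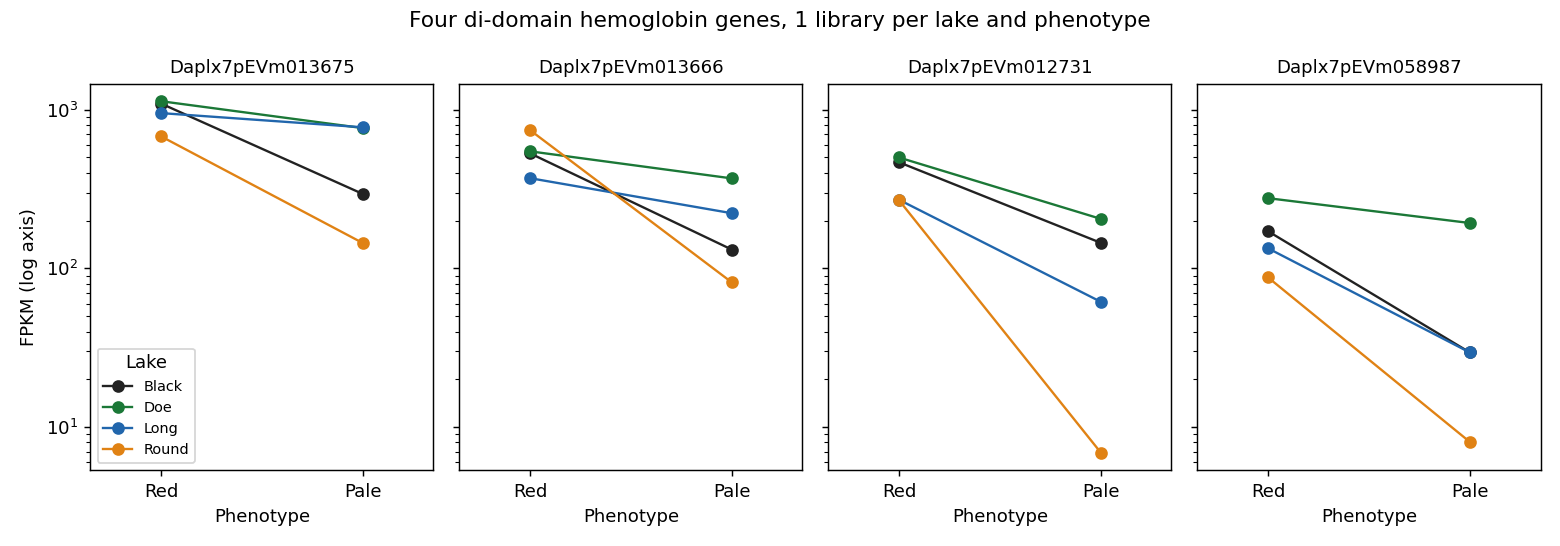
FPKM (log axis) of the 4 di-domain hemoglobin genes in Red and Pale animals, with 1 point per library and a line joining the libraries of a lake. Every line falls to the right; the steepest, Round in Daplx7pEVm012731, runs between 269 FPKM in Red and 6.9 FPKM in Pale, and the Doe lines are among the flattest.

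All 4 genes were higher in Red in 4 of 4 lakes, which held for 6.57% of the 12865 genes tested (those averaging 1 FPKM or more), and 2 of the 4 had every Red library above every Pale library, which held for 1.62% of those genes. Nothing is read from these counts, since the same difference chose the genes. The Red minus Pale difference on the log2(FPKM + 1) scale was 1.24 ± 0.36 for Daplx7pEVm013675, 1.62 ± 0.46 for Daplx7pEVm013666, 2.54 ± 0.64 for Daplx7pEVm012731 and 2.11 ± 0.44 for Daplx7pEVm058987 (limma estimates with standard errors, lake as a block). Without the Round pair, the difference of Daplx7pEVm012731 was 1.69 and that of Daplx7pEVm013666 was 1.10.

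Lakes differed in how far Red and Pale stood apart. The summed FPKM of the 4 genes was 2053 ± 358 in Red and 864 ± 563 in Pale (SD, n = 4 each), and Red exceeded Pale 2.90-fold as a geometric mean of the lakes. The Round pair stood 7.38-fold apart and the Black pair 3.77-fold, while Doe reached 1.60-fold and Long 1.59-fold. Single genes spread further. In Round, Red exceeded Pale 38.9-fold for Daplx7pEVm012731, 10.9-fold for Daplx7pEVm058987, 9.11-fold for Daplx7pEVm013666 and 4.70-fold for Daplx7pEVm013675. In Doe the ratios were 2.44, 1.43, 1.48 and 1.48 in the same order of genes. Long divided the genes, with ratios of 4.40 for Daplx7pEVm012731 and 4.53 for Daplx7pEVm058987 but 1.66 for Daplx7pEVm013666 and 1.23 for Daplx7pEVm013675. Each lake and phenotype had 1 library, so whether lakes differ in this ratio could not be tested.

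In fold spans and on the log2 scale, Red libraries lay closer together than Pale libraries did for these genes. They were chosen by their level and colour difference, so this was not tested. The highest Red library exceeded the lowest 1.66-fold for Daplx7pEVm013675, 2.01-fold for Daplx7pEVm013666, 1.86-fold for Daplx7pEVm012731 and 3.15-fold for Daplx7pEVm058987. In Pale those spans were 5.36-fold, 4.52-fold, 29.7-fold and 23.9-fold. On the log2(FPKM + 1) scale the SD over lakes ran from 0.34 to 0.69 in Red and from 0.94 to 2.11 in Pale (n = 4 each). In FPKM the SD was larger in Red for Daplx7pEVm013666 (153 against 126) and Daplx7pEVm012731 (124 against 87.7). It was larger in Pale for Daplx7pEVm013675 (323 against 204) and Daplx7pEVm058987 (85.9 against 80.5). The order of lakes was not the same for every gene. Doe was highest in Red for 3 of the 4 genes, but Round was highest for Daplx7pEVm013666. In Pale, Round was lowest for all 4, and Doe was highest for all but Daplx7pEVm013675, where Long lay slightly above it. With 1 library at each point, neighbours in these orders cannot be told apart by replicate error.

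The proportions among the 4 genes varied between lakes. Daplx7pEVm013675 made up 46.9% ± 6.98 of their sum in Red and 57.5% ± 10.3 in Pale (SD, n = 4 each). Daplx7pEVm012731 made up 17.9% ± 2.95 in Red and 11.5% ± 9.52 in Pale. Daplx7pEVm013666 varied more in Red, with 27.2% ± 9.73 in Red and 25.1% ± 6.05 in Pale. For each 1 FPKM of Daplx7pEVm013675, Daplx7pEVm012731 had 0.427, 0.442, 0.285 and 0.396 FPKM in the Red libraries of Black, Doe, Long and Round, against 0.492, 0.268, 0.0795 and 0.0478 FPKM in Pale. Black kept the proportion in both phenotypes, while in Pale Long and Pale Round Daplx7pEVm012731 was a small fraction of the leading copy. Daplx7pEVm013666 stood at 1.09 per unit of Daplx7pEVm013675 in Red Round, the sole library in which it was the more abundant of the pair, and between 0.288 and 0.565 in the other 7. Over the 8 libraries, Pearson correlations of log2(FPKM + 1) between pairs of the 4 genes ran from 0.852 to 0.916 and Spearman correlations from 0.619 to 0.850. These describe values that share lake, colour and library.

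Set against the whole transcriptome, Daplx7pEVm013675 ranked 17, 10, 16 and 26 among 33069 genes in the Red libraries of Black, Doe, Long and Round, against 109, 20, 18 and 290 in Pale. Daplx7pEVm058987 ranked between 105 and 382 in Red and between 173 and 4051 in Pale. Daplx7pEVm012731 ranked between 43 and 121 in Red; in Pale it ranked 4646 in Round and between 162 and 559 in the other lakes. The 4 genes together held 0.312% to 0.443% of all FPKM in Red and 0.0413% to 0.277% in Pale. One uncharacterized gene, Daplx7pEVm025448, held 45.2% to 48.1% of the sum in Red and 41.0% to 47.1% in Pale. With libraries rescaled to equal sums without it, the ratio of the summed FPKM of the 4 genes was 3.13.

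Within the globin family, the 4 genes held 43.9% ± 2.65 of the summed FPKM of all 34 globin genes in Red and 38.8% ± 10.7 in Pale (SD, n = 4 each). Their share was 42.9%, 46.1%, 40.6% and 46.0% in the Red libraries of Black, Doe, Long and Round, against 34.8%, 44.4%, 50.2% and 25.8% in Pale. It was higher in Red in Black, Doe and Round and lower in Red in Long, where Daplx7pEVm013675 alone held 22.4% of the globin sum in Red and 35.7% in Pale. Summed over the other 23 di-domain genes, Red exceeded Pale 2.89-fold for Black, 1.36-fold for Doe, 1.94-fold for Long and 4.46-fold for Round. Of these 23, 18 were tested, 15 with higher and 3 with lower values in Red (8 higher and 3 lower at an unadjusted limma p under 0.05), and their median log2 difference was 0.99. Of all 12865 genes tested, 4958 had higher and 7907 lower values in Red, and 2.89% were higher and 9.29% lower at such a p. The 3 genes named Globin, oxygen-binding proteins without the di-domain name, had ratios of 8.18, 2.38, 7.66 and 2.39 in the same order of lakes. The 2 genes with a cytoglobin name had 0.131, 1.22, 0.331 and 1.39. Round was thus the lake of the highest ratio for the sum of the 4 genes and that of the other di-domain genes, but not for the Globin sum. Single copies could differ from their sum. For the di-domain gene Daplx7pEVm013713 the ratio was higher in Long (339.6 against 2.82 FPKM) than in Round (112.8 against 1.21 FPKM). The Globin sum was mostly 1 gene, Daplx7pEVm022328, with a mean of 412 of 420 FPKM.

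**Figure D2:**
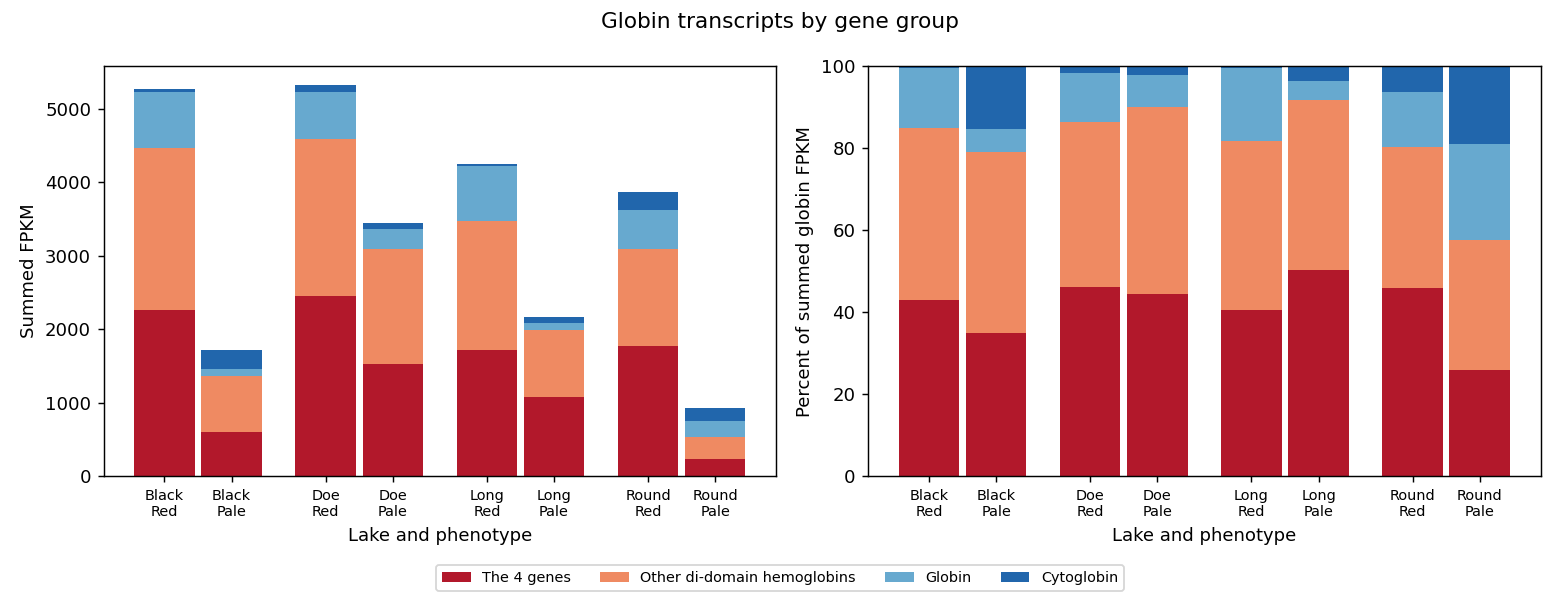
Summed FPKM (left) and percent of the summed globin FPKM (right) of 4 gene groups in each library, Red left of Pale within a lake; each bar is 1 library, and a further 2 globin genes holding at most 0.103% are not drawn. The dark segment of the 4 genes is between 40.6% and 46.1% in Red and between 25.8% and 50.2% in Pale.

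The 4 genes are not simply the most abundant copies. By mean FPKM over the 8 libraries they ranked 1, 4, 5 and 11 among the 34 globin genes. Between Daplx7pEVm013675 and Daplx7pEVm013666 lay the gene named Globin, Daplx7pEVm022328, with 657 ± 116 FPKM in Red and 167 ± 86.5 FPKM in Pale, and the di-domain gene Daplx7pEVm013589 (SD, n = 4 each). Daplx7pEVm013589 had 579, 419, 468 and 485 FPKM in the Red libraries of Black, Doe, Long and Round, against 166, 464, 370.5 and 73.8 FPKM in Pale. It was at the level of the 4 genes but lower in Red than in Pale in Doe. Daplx7pEVm013392, with 217 ± 17.1 FPKM in Red and 172 ± 95.5 FPKM in Pale, was likewise lower in Red in 1 lake, Long (SD, n = 4 each).

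Another 3 di-domain genes lay above Daplx7pEVm058987 in mean level and were higher in Red in 4 of 4 lakes. These were Daplx7pEVm013713, Daplx7pEVm013338 and Daplx7pEVm011494, whose Pale Round values were 1.21, 3.28 and 3.74 FPKM and whose Pale Long values were 2.82, 6.83 and 34.4 FPKM. In Pale Long, the 4 genes had between 29.5 and 773 FPKM. Below Daplx7pEVm058987, at 116 FPKM, the next di-domain gene by mean level was Daplx7pEVm013242, at 47.5 FPKM, which was higher in Red in 2 lakes.

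**Figure D3:**
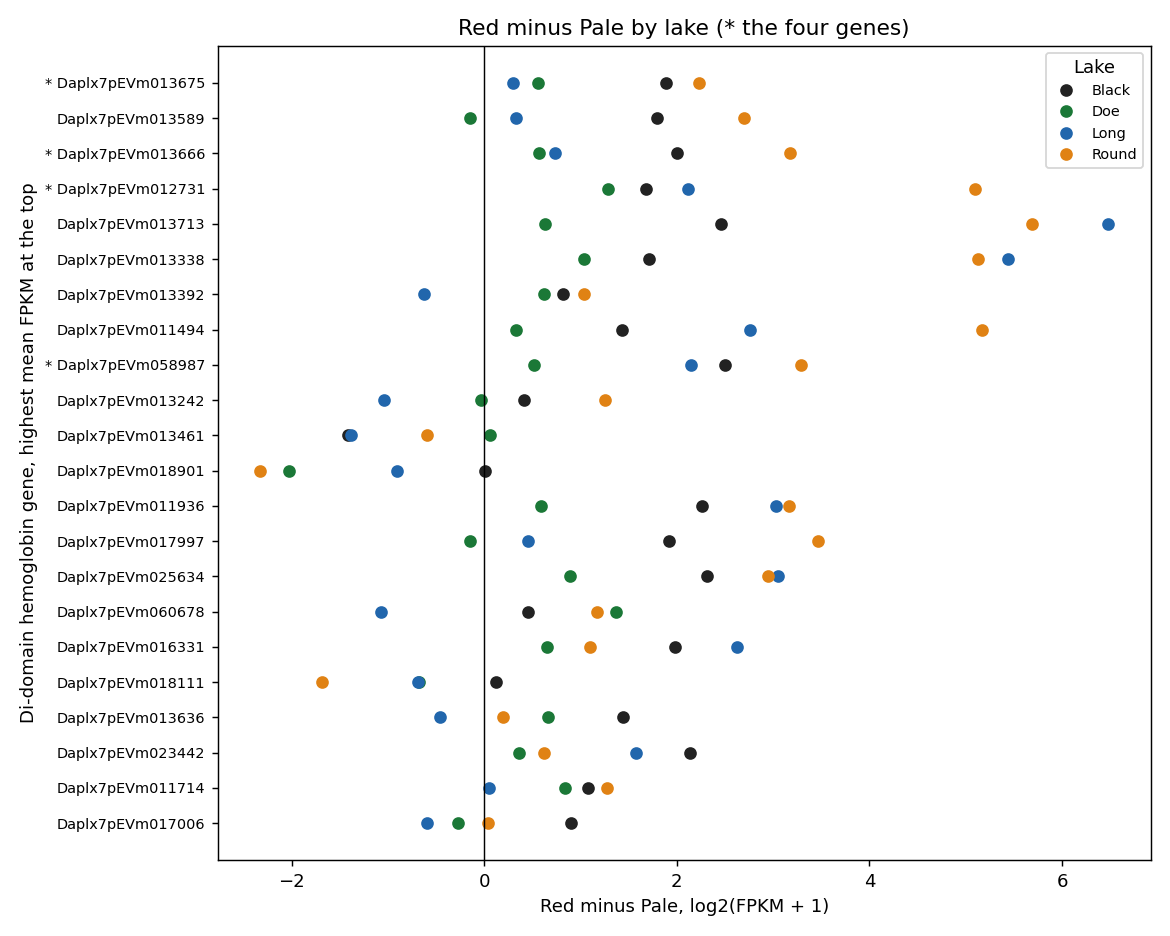
Red minus Pale difference in log2(FPKM + 1) by lake for the di-domain genes tested, ordered by mean level, with 1 point per lake. The 4 genes, starred, lie right of 0 in all lakes, with Round farthest right and Doe or Long farthest left, and several copies between and below them have points on both sides of 0.

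The 4 genes were also compared between lakes, averaged over colour. They were chosen with earlier results of these data known, so this comparison is not independent of their choice. Its error is the variation between lakes of the colour difference by which they were chosen. In limma's F test over the lake terms, 0 of the 4 genes passed after Benjamini-Hochberg adjustment over 12865 genes, as did 0% of all genes. Unadjusted, 1273 genes, or 9.9%, had p under 0.05. Daplx7pEVm058987 had the smallest p of the 4 (unadjusted p = 0.0186, adjusted p = 0.397). Daplx7pEVm013675 and Daplx7pEVm012731 had adjusted p = 0.542, and Daplx7pEVm013666 had adjusted p = 0.843.

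Each lake was also set against the mean of the other 3. Doe was higher than the others by 2.19 ± 0.51 on the log2 scale for Daplx7pEVm058987 (SE, limma unadjusted p = 0.00598, adjusted p = 0.325), beside 3.33% of all genes with an unadjusted p under 0.05 and a higher level in Doe. Round differed by -1.29 ± 0.42 for Daplx7pEVm013675, by -2.26 ± 0.74 for Daplx7pEVm012731 and by -1.86 ± 0.51 for Daplx7pEVm058987, each with a limma adjusted p = 0.552. These 3 had unadjusted p under 0.05, as 2.5% of all genes did with a lower level in Round and 5.8% with a higher one, whereas Daplx7pEVm013666 differed by -0.39 ± 0.53. For Black and Long none of the 4 genes had an unadjusted p under 0.05, beside 4.97% of all genes higher and 4.03% lower in Black and 2.71% higher and 4.99% lower in Long. None of the 16 contrasts of a lake and a gene passed after limma's adjustment, as did 0% of all genes for Doe, Long and Round and 0.0389% for Black.

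The isoform table lists 28 transcripts of the 4 genes. Daplx7pEVm013675 had 6 isoforms and was led by t6, which held 64.4% ± 3.26 of the gene in Red and 69.3% ± 5.61 in Pale (SD, n = 4 each). Its second isoform, t3, held 18.9% ± 2.64 in Red and 16.7% ± 3.83 in Pale. The lead of t6 over t3 was present in all 8 libraries. Isoform t4 of this gene carries the name uncharacterized protein and held at most 4.72%.

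Daplx7pEVm013666 had 10 isoforms, led by t1 with 46.8% ± 8.93 in Red and 45.9% ± 5.52 in Pale and by t6 with 23.1% ± 4.29 in Red and 21.7% ± 2.55 in Pale (SD, n = 4 each). Both Round libraries departed from the rest. There t1 held 35.1% in Red and 37.7% in Pale, against 45.8% to 56.4% elsewhere. Isoform t9 held 11.4% in Red Round and 5.31% in Pale Round, and at most 1.94% in the other 6 libraries. Isoform t8, the sole isoform with a second name added (ARP2_G2466), held 6.60% in Red Round and 11.1% in Pale Round, and up to 6.70% in the other lakes. In Red Round, where this gene had its highest level, t9 and t10 gave 85.0 and 49.3 of its 743 FPKM.

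Daplx7pEVm012731 had 9 isoforms, of which 2 were listed at 0 throughout, and no single leader. Isoform t1 held 27.8% ± 11.31 in Red and 32.2% ± 14.1 in Pale, t3 held 23.0% ± 1.17 in Red and 21.2% ± 5.41 in Pale and t4 held 20.7% ± 5.63 in Red and 19.2% ± 6.21 in Pale (SD, n = 4 each). Isoform t9 was listed at 0 in both Doe libraries and held 5.64% to 16.4% in the other 6. Isoform t8 held 1.49% in Red Long and 4.21% in Pale Long, against 20.9% to 26.6% in Black and Doe of either colour. In Round it held 16.5% in Red and 1.59% in Pale, but the Pale value rests on 0.11 of 6.9 FPKM.

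Daplx7pEVm058987 had 3 isoforms. In Black and Doe the proportions were nearly constant across colour, with t2 at 52.7% to 56.5%, t3 at 26.7% to 29.7% and t1 at 16.8% to 18.2%. Long differed: t3 held 5.32% in Red Long and was listed at 0 in Pale Long, and t1 held 22.9% in Red Long and 70.7% in Pale Long. In Round, t1 held 45.6% in Red and 21.2% in Pale.

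**Figure D4:**
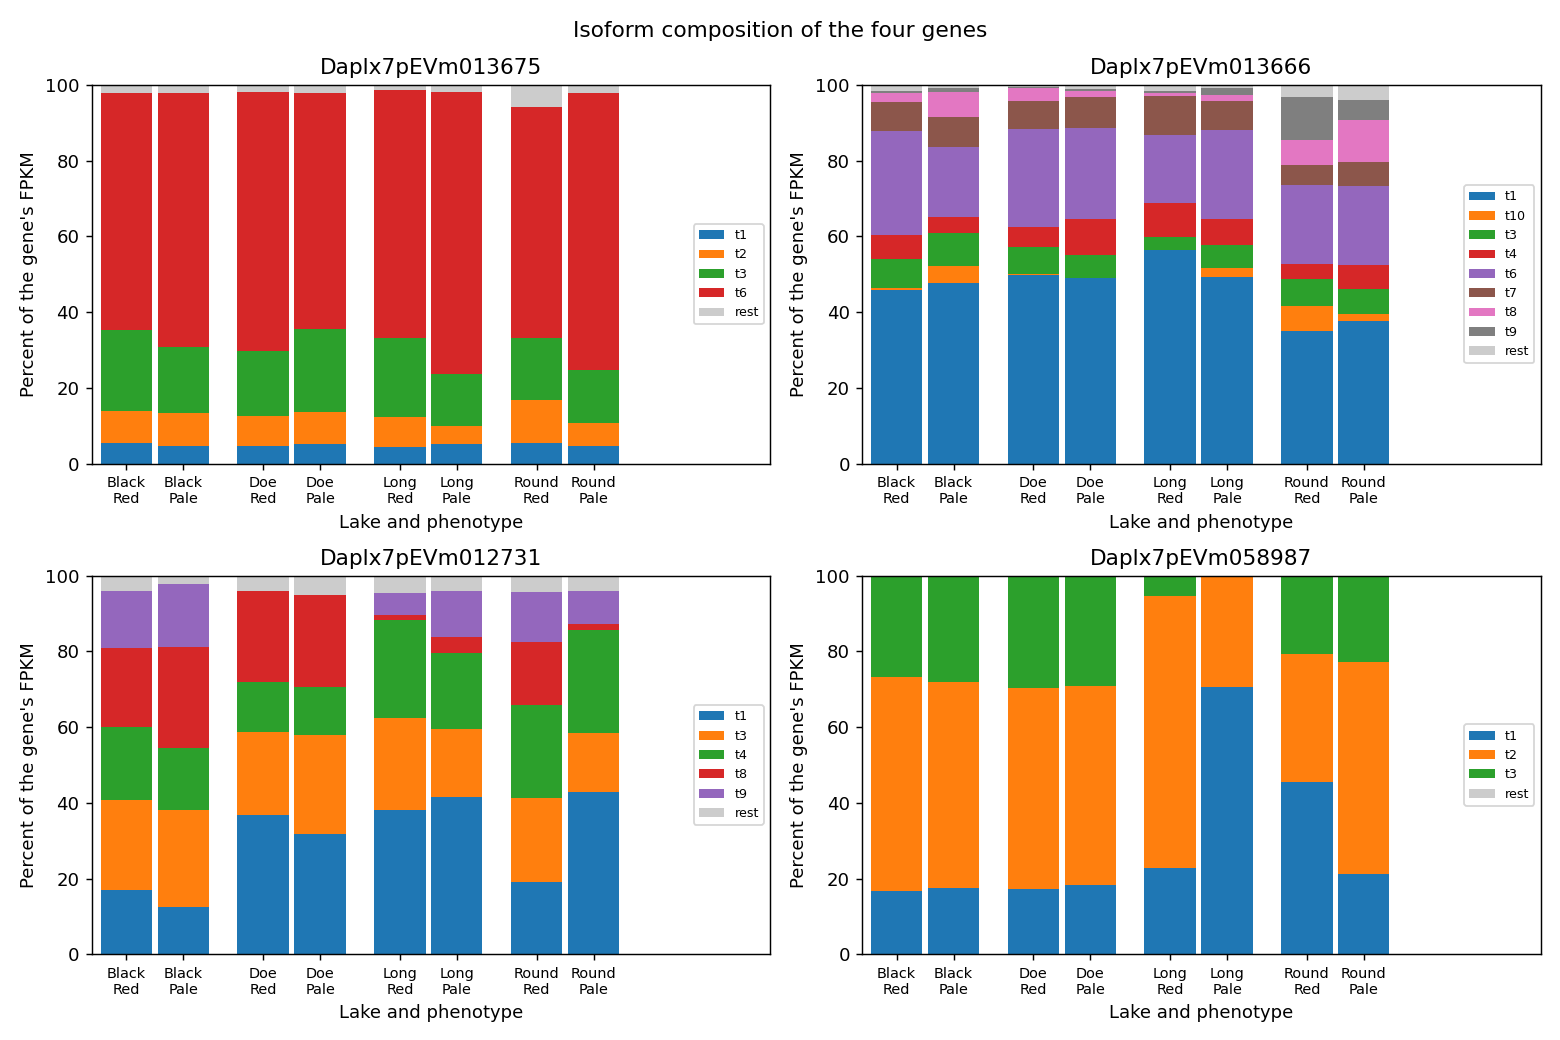
Percent of each gene's FPKM held by its isoforms in each library, with 1 bar per library and Red left of Pale within a lake; isoforms under 5% in all libraries are summed in grey. Isoform t9 of Daplx7pEVm012731 is missing in both Doe bars, t8 of Daplx7pEVm012731 is thin in both Long bars, t3 of Daplx7pEVm058987 is thin in Red Long and missing in Pale Long, and t9 of Daplx7pEVm013666 is widest in both Round bars.

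Part of these isoform patterns by lake was tested with limma's F test over the lake terms, a test added after the shares had been seen. It covered all 39289 isoforms that held on average at least 5% of a gene with several isoforms. That gene had to be above 0 in every library and to average 1 FPKM or more. Isoforms t8, t9 and t10 of Daplx7pEVm013666 fell below that share, so their levels in Round were not tested. For t1 of that gene, limma's unadjusted p was 0.201 (adjusted p = 0.817). Of all isoforms, 0% passed after adjustment and 7.39% had an unadjusted p under 0.05. The 4 genes had 16 isoforms in that test, and 3 of them had such a p. In limma, t3 of Daplx7pEVm058987 had adjusted p = 0.581, t9 of Daplx7pEVm012731 had adjusted p = 0.672 and t8 of Daplx7pEVm012731 had adjusted p = 0.674. None of them passed the adjustment. Without the Long pair, limma's unadjusted p was 0.470 for t3 of Daplx7pEVm058987 and 0.188 for t8 of Daplx7pEVm012731, and without the Doe pair it was 0.407 for t9 of Daplx7pEVm012731. Between Red and Pale, t6 of Daplx7pEVm013675 held less of its gene in Red in 3 of 4 lakes.

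Hemoglobin needs heme, and the enzymes that make heme were measured in the same libraries. Red against Pale, limma called 0 of 12865 genes after adjustment over all genes (0%). At an unadjusted p under 0.05, 372 genes were higher in Red (2.89%) and 1195 were lower (9.29%), while 4958 genes had higher and 7907 lower values in Red whatever their p, and over all genes the log2 difference had a median of -0.08. That median was 0.02 with quantile normalization. Of the 11 genes of heme synthesis and breakdown, 9 had higher and 2 had lower values in Red, 2 had an unadjusted p under 0.05, both higher, and the median was 0.19. Without 1 lake that median was 0.12 (Black), 0.34 (Long) or 0.35 (Round), and it was 0.31 with quantile normalization and 0.10 at a pseudocount of 5. Coproporphyrinogen-III oxidase (Daplx7pEVm011720), a late enzyme of the pathway, had 8.44, 7.54, 7.74 and 4.98 FPKM in the Red libraries of Black, Doe, Long and Round, against 3.82, 4.27, 4.28 and 2.85 FPKM in Pale (limma adjusted p = 0.271). Porphobilinogen deaminase (Daplx7pEVm011113), which joins pyrrole units into a chain, had 1.70 ± 0.25 FPKM in Red and 0.472 ± 0.368 FPKM in Pale (SD, n = 4 each). The most abundant gene of the list, 5-aminolevulinate synthase (Daplx7pEVm006529), the entry enzyme of heme synthesis, had 97.7, 34.1, 42.9 and 26.9 FPKM in Red, against 42.4, 29.9, 89.6 and 30.8 FPKM in Pale. Its values were higher in Red in Black and Doe and lower in Red in Long and Round. Uroporphyrinogen decarboxylase (Daplx7pEVm013495), the next in level, had 12.1 ± 4.21 FPKM in Red and 8.22 ± 2.32 FPKM in Pale (SD, n = 4 each). It was higher in Red in 2 lakes, Black and Long, and lower in Doe and Round.

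Of the 8 hypoxia signalling genes, 5 had higher and 3 had lower values in Red, with a median of 0.13, and 3 higher and 1 lower had an unadjusted p under 0.05. Among all 12865 genes tested, 4958 had higher and 7907 lower values in Red, and 2.89% were higher and 9.29% lower at such a p. The median of the hypoxia signalling genes was 0.34 with quantile normalization and 0.22 with size factors, 0.25 without Black and 0.04 without Long. The 2 genes named hypoxia-inducible factor 1-alpha differed in level and pattern. The abundant one, Daplx7pEVm003281, had 41.5 ± 6.52 FPKM in Red and 40.7 ± 4.99 FPKM in Pale, and the low one, Daplx7pEVm012460, had 2.59 ± 0.49 FPKM in Red and 0.61 ± 0.43 FPKM in Pale (SD, n = 4 each). Aryl hydrocarbon receptor nuclear translocator (Daplx7pEVm004304), the partner with which that factor binds DNA, had 22.0 ± 1.72 FPKM in Red and 18.5 ± 2.33 FPKM in Pale (SD, n = 4 each). Daplx7pEVm014955, named for a family of oxygen-dependent prolyl hydroxylases that mark hypoxia-inducible factor for breakdown, had 16.01, 21.3, 28.7 and 35 FPKM in the Red libraries of Black, Doe, Long and Round, against 5.10, 7.74, 13.2 and 3.77 FPKM in Pale. Its lowest Pale library, Round, was also the lowest Pale library of the 4 hemoglobin genes. Its lowest Red library was Black, which was the lowest Red library of none of the 4 hemoglobin genes.

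Of the 15 iron genes tested of 19, 4 had higher and 11 had lower values in Red, with a median of -0.26, and 5 lower and 0 higher had an unadjusted p under 0.05. Without Round that median was -0.15. Among all 12865 genes tested, 4958 had higher and 7907 lower values in Red, and 2.89% were higher and 9.29% lower at such a p. The ferritin heavy subunit genes Daplx7pEVm017571 and Daplx7pEVm019056, parts of the iron store, had 138 ± 36.2 and 143 ± 40.4 FPKM in Red, against 255 ± 44.2 and 233 ± 24.0 FPKM in Pale (SD, n = 4 each). Of the 20 oxygen and radical defence genes tested of 27, 6 had higher and 14 had lower values in Red, with a median of -0.15, and 1 higher and 3 lower had an unadjusted p under 0.05. Quantile normalization gave a median of 0.01 for this list, size factors gave -0.06, and leaving out Doe gave -0.08. A copper-zinc superoxide dismutase (Daplx7pEVm000386), an enzyme that removes superoxide, was the most abundant of them, with 3620, 660.2, 1932 and 1276 FPKM in the Red libraries of Black, Doe, Long and Round, against 1120.3, 1402, 1642 and 1353 FPKM in Pale. The next in level, Daplx7pEVm000278, had 205 ± 102 FPKM in Red and 203 ± 51.7 FPKM in Pale (SD, n = 4 each). Glutathione peroxidase (Daplx7pEVm018702), which reduces peroxides, had 3.98 ± 1.60 FPKM in Red and 1.31 ± 1.21 FPKM in Pale, and mitochondrial Peroxiredoxin-5 (Daplx7pEVm016534), another peroxide-reducing enzyme, had 29.9 ± 7.25 FPKM in Red and 54.9 ± 8.50 FPKM in Pale (SD, n = 4 each).

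Genes whose pattern over the 8 libraries was most like the summed FPKM of the 4 were ranked by Pearson correlation of log2(FPKM + 1) over 12865 genes. The 4 genes themselves ranked 1, 3, 5 and 8, but they are parts of that sum, so nothing is read from their ranks. Among other globins the most alike were the di-domain genes Daplx7pEVm013589 (r = 0.968, rho = 0.762), Daplx7pEVm017997 (r = 0.915, rho = 0.571) and Daplx7pEVm011494 (r = 0.903, rho = 0.810). The di-domain genes Daplx7pEVm018111 (r = -0.640), Daplx7pEVm013461 (r = -0.603) and Daplx7pEVm018901 (r = -0.525) ran the other way. The gene named Globin, Daplx7pEVm022328, had r = 0.650 and rho = 0.810.

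Outside the globins, the 10 named genes most alike had r between 0.891 and 0.927. DnaJ (Hsp40), subfamily C, member 10 (Daplx7pEVm003980; r = 0.927, rho = 0.714), a chaperone of the secretory pathway, had 4.53 to 5 FPKM in Red and 3.66 to 4.83 FPKM in Pale. The gene named eno (Daplx7pEVm009281; r = 0.926, rho = 0.881), the usual symbol of the glycolytic enzyme enolase, had 141, 126, 127 and 125 FPKM in the Red libraries of Black, Doe, Long and Round, against 102, 114, 106 and 91.4 FPKM in Pale. Every Red value of eno was above every Pale value. Tyrosine recombinase (Daplx7pEVm017181) had 23.0 to 29.3 FPKM in Red and 10.1 to 25.9 FPKM in Pale, with r = 0.907 and rho = 0.881. Porphobilinogen deaminase, described above, was on this list too (r = 0.8996, rho = 0.833). The others were Tudor domain-containing protein (Daplx7pEVm000194, r = 0.903), Ubiquitin conjugation factor E4 A (Daplx7pEVm002387, r = 0.901), JmjC domain-containing protein (Daplx7pEVm015177, r = 0.897), Glycosyltransferase 8 domain-containing protein (Daplx7pEVm010085, r = 0.896), Innexin shaking-b (Daplx7pEVm010455, r = 0.893) and Inositol monophosphatase (Daplx7pEVm016233, r = 0.891). These correlations rest on 8 libraries that share lake and colour, and are the highest of many, so they describe likeness and nothing more. All of these genes but Tyrosine recombinase were lowest in Pale Round, where the summed FPKM of the 4 hemoglobin genes was lowest too. Several, such as the DnaJ and JmjC genes, were not higher in Red in every lake.

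Markers of tissues whose share of the animal can differ were set beside the hemoglobin genes. Of all 12865 genes tested, 7907 had lower values in Red, and 2.89% were higher and 9.29% lower at an unadjusted limma p under 0.05. The muscle names also took in genes named Myosin light chain kinase, such as Daplx7pEVm000003. The summed FPKM of 20 muscle genes was 701 to 1011 in Red and 908 to 1436 in Pale and was lower in Red in 4 of 4 lakes; 13 of the 15 tested had lower values in Red, 7 lower and 1 higher at an unadjusted p under 0.05, and 1 of the 20 was listed at 0 throughout. The 18 yolk genes summed to 957 to 2194 FPKM in Red and 1351 to 1742 FPKM in Pale, with none at 0 throughout. Their sum was higher in Red in 3 lakes and lower in Doe. By gene, 2 of the 9 tested had higher values in Red, and 1 higher and 0 lower had an unadjusted p under 0.05. The 120 gut genes summed to 4298 to 6524 FPKM in Red and 4259 to 8921 FPKM in Pale, with 4 at 0 throughout; 24 of the 85 tested had higher values in Red, and 2 higher and 15 lower had an unadjusted p under 0.05. The 95 eye genes summed to 1556 to 2673 FPKM in Red and 1329 to 3343 FPKM in Pale, with 10 at 0 throughout; 16 of the 29 tested had higher values in Red, and 4 higher and 2 lower had an unadjusted p under 0.05. The part of tissue shares in the hemoglobin levels was not tested.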

How the data were processed

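The authors deposited FPKM values per gene and per isoform, with 2 decimals, for 8 libraries. Reads were trimmed with Trimmomatic, per the submitters' processing notes. Alignment, quantification and genome build are not given in the sources used here. Gene names were those deposited. RefSeq's genes of assembly SC_F0-13Bv2 shared 0 of the 33069 identifiers, so no coordinates or sequences are shown. Each gene FPKM equalled the sum of its isoforms to within 0.04. The authors' deposited log2 ratios were not used.

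The scale of analysis was log2(FPKM + 1). It understates changes of low genes, and genes averaging under 1 FPKM were left out. Tests used limma 3.58.1 (R 4.3.3), its trend option on, lake and phenotype as terms, two-sided, with Benjamini-Hochberg adjustment over all genes and a threshold of 0.05. The procedure was tested on simulated data with independent normal noise around flat gene means and planted shifts, a simpler setting than these data. Since no lake and phenotype was repeated, the error is the variation of the colour difference between lakes, and p-values refer to these pooled samples. Lake pairs the libraries by label; deviations of a lake's Red and Pale library from their phenotype means correlated at 0.485 (Black), -0.015 (Doe), -0.021 (Long) and 0.214 (Round). Lists were gene name patterns. The genes and lists were chosen with earlier results of these data known. Named were all 4 genes, the globins near them in level, up to 4 genes per list by level and p, the 10 named genes most alike and isoforms of at least 5%. Other pseudocounts, filters, scalings, no trend, no block and omission of each lake were tried.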

Additional observations from a re-analysis of the deposited data

Results flagged for a closer look

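In 118 groups of 4 libraries, Dixon's criterion at the 95% level flagged 12. Each held a library whose gap to the nearest other took up most of the group's range. The nominal rate of about 1 in 20 groups (5%) assumes independent groups of normally distributed values. These groups share libraries, and many of the genes were chosen from these data. Whether 12 is more than chance gives therefore cannot be told. Among Pale libraries, Doe stood apart for Daplx7pEVm058987 with 193 FPKM, against 8.06 to 29.5 FPKM in the other lakes. Pale Long stood apart for the di-domain gene Daplx7pEVm013392 with 314 FPKM, against 106 to 136 FPKM. In Red, Round stood apart in the share of the globin sum held by Daplx7pEVm013666, at 19.2%, against 8.71% to 10.3% in the other lakes.

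Further libraries stood apart in isoform shares. Red Round held 11.4% of Daplx7pEVm013666 in t9 and 6.64% in t10, against at most 0.645% and 0.602% in the other Red libraries. Pale Round held 37.7% of the same gene in t1, against 47.7% to 49.2% in the other Pale libraries. Red Long held 3.45% of it in t3, against 7.02% to 7.70% in the other Red libraries. Pale Long held 70.7% of Daplx7pEVm058987 in t1 and 29.3% in t2, against 17.6% to 21.2% and 52.7% to 56.0% in the other Pale libraries. Since t3 was listed at 0 in Pale Long, the t1 and t2 shares there mirror each other.

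Outside the hemoglobins, Red Black had 1.85 FPKM of hypoxia-inducible factor 1-alpha Daplx7pEVm012460, against 2.77 to 2.90 FPKM in the other Red libraries, and 141 FPKM of eno (Daplx7pEVm009281), against 125 to 127 FPKM. Red Long had 1.06 FPKM of Glycosyltransferase 8 domain-containing protein (Daplx7pEVm010085), against 1.73 to 1.84 FPKM.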

How the results depend on the processing

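The log2 difference Red minus Pale of each of the 4 genes stayed above 0 under all 13 alternatives: from 0.92 to 1.56 for Daplx7pEVm013675, from 1.10 to 1.97 for Daplx7pEVm013666, from 1.69 to 2.96 for Daplx7pEVm012731 and from 1.72 to 2.64 for Daplx7pEVm058987. The lowest value of each came without the Round pair. Each gene was higher in Red in every lake, so neither omitting a lake nor changing the pseudocount could reverse that sign. Changes of filter, trend or block left the estimates as they were. The sign is therefore not read as a check. The ratio of their summed FPKM was 2.12 to 3.55 with 1 lake left out, 3.09 with size factors and 3.13 when rescaled without Daplx7pEVm025448. Their share of globin FPKM was 52.8% in Red and 48.2% in Pale of di-domain genes alone. Adjusted p of the lake F test ran from 0.356 to 0.987 over the 4 genes and 12 alternatives. Without the replicate block, limma called 0 genes between Red and Pale and 1320 had an unadjusted p under 0.05, against 1567 with it. Called genes in the lake F test numbered 1 with a pseudocount of 5. For Black against the other lakes they numbered 5, and 3 at a pseudocount of 0.1, 13 at a pseudocount of 5, 0 without a filter, 0 when genes had to average 5 FPKM and 0 to 19 with 1 other lake left out; the cause was not tested. The median of the other globins was 1.17, but 0.45 at a pseudocount of 5, 0.46 unfiltered, 0.70 without the Round pair and 0.85 without the Black pair. The number of reads is unknown, so counting error of low values, such as those of Pale Round, could not be given.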
